A study of Mus musculus with 168 samples.

Results

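The cortex of Q175 mice was compared between 2 and 10 months of age by sequencing of small RNA. Q175 mice carry 1 wild-type Htt allele and 1 allele with a human exon of HTT whose long CAG repeat arose by spontaneous expansion in the Q140 knock-in line. The members are the 16 libraries labelled heterozygous Q175 at these ages, 8 per age with 4 females and 4 males each, out of 168 cortex libraries of 7 genotypes at 3 ages. The labels give the strain as C57BL/6, and per the methods the lines were kept by crosses of heterozygous males with C57BL/6J females. Cages held heterozygous and WT mice of 1 sex, also per the methods. The column names hold a code that was read here as that of the cage, though no label names it so. Each sex at each age of Q175 had 1 such cage code. The libraries of 2 months ran on lane 1 (1 library), lane 2 (4), lane 3 (2) and lane 4 (1), and those of 10 months on lane 6 (3), lane 7 (4) and lane 8 (1), as the column names give them. The ages share no lane number, so age, lane and cage cannot be told apart within Q175. Mice of other genotypes at the same ages served as references. The controls were 16 mice per age, Q20 heterozygotes, whose CAG repeat is short, and their wild type (WT) littermates, and the Q140 heterozygotes were 8 mice per age. Each sample is the cortex of 1 mouse and holds all its cell types, so fewer cells of a type and less RNA per cell cannot be told apart.

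MicroRNAs are short RNAs that pair with messenger RNA, mostly through a seed near their 5′ end, and lower its translation and stability. A hairpin precursor is cut to give a mature strand from 1 or both of its arms, and related microRNAs with a shared seed form a family. In the cortex the Mir29 family is known for its rise during postnatal maturation, Mir219a and Mir338 for their part in oligodendrocyte differentiation, Mir7 and Mir124 for their high levels in neurons, and Mir132 and Mir212 for induction by neuronal activity through CREB.

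The sequences below are those of the families that the results turn on, taken from RefSeq (build GRCm38.p6), with the seed of bases 2 to 8 in capitals. A RefSeq mature sequence was found for 304 of the 357 microRNAs tested. The 3 mature forms of the Mir29 family, which rose with age, share 1 seed:
miR-29a-3p: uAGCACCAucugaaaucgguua
miR-29b-3p: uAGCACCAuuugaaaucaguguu
miR-29c-3p: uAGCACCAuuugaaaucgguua
Mir15a and Mir195a, which also rose, share another. Mir497b, whose hairpin lies beside Mir195a, has a different seed, which it shares with Mir140 (not called):
miR-15a-5p: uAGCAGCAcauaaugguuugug
miR-195a-5p: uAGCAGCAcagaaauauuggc
miR-497b: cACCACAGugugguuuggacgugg
Oligodendrocyte microRNAs that rose:
miR-219a-5p: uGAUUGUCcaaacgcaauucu
miR-338-3p: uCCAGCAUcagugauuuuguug
Both Mir7 forms fell and share a seed, as did the neighbours Mir296 and Mir298, which do not:
miR-7a-5p: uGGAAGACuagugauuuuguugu
miR-7b-5p: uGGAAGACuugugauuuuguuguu
miR-296-5p: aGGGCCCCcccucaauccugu
miR-298-5p: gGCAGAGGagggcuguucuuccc
The pairs that fell in Q175 and differed from the age change of controls share a seed within each pair:
miR-132-3p: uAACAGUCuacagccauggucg
miR-212-3p: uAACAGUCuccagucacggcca
miR-221-3p: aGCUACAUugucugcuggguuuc
miR-222-3p: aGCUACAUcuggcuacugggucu
The counts were made per hairpin, so they do not tell which arm was read. Of the tested hairpins, 44 share an identical mature sequence with another one, as Mir29b-1 does with Mir29b-2 and Mir7-1 with Mir7-2, and the authors' assignment of reads between such copies is uncertain.

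The Q175 libraries held between 4813870 and 6109577 counts at 2 months (median 5541286) and between 4153835 and 6047532 at 10 months (median 4880442). Levels are given as CPM, counts scaled to a common library total, after TMM normalization, with the lowest, median and highest of the 8 mice, and a change is the log2 of the level at 10 months over that at 2 months with its standard error (SE). The test was edgeR's quasi-likelihood F test in either direction, with sex in the model, adjusted by the Benjamini-Hochberg method over all microRNAs tested, and a microRNA is called at a false discovery rate (FDR) of 0.05. Its p-values measure the spread between mice of 1 cage code per sex and age. In a few Q175 libraries, and in many control libraries, of 2 months markers of other tissue were high. Mir182, a microRNA of sensory and olfactory epithelia, stood at 15990 CPM in 2-month male 2 and between 161 and 2012 CPM in the other 7 mice, and the summed level of the olfactory and sensory list had a median of 12943 CPM (277 to 33164) in the 2-month controls. The choroid plexus microRNAs Mir448, Mir1298 and Mir204 were highest in 2-month male 1 and next highest in female 1. When these 3 libraries were left out, which was decided once the data had been seen, 127 microRNAs were called, of which 122 were among those of all 16 libraries.

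At 10 months 160 of 357 microRNAs differed from 2 months (44.8% of those tested), 82 of them higher (23%) and 78 lower (21.8%). Most changes were small. The median size of the called changes was 0.32 on the log2 scale, and 17 reached 2-fold, 5 of them up and 12 down. For 56 microRNAs (15.7%) the range of the 8 mice at 10 months lay wholly outside the range of the 8 at 2 months, above it for 25 (7%) and below it for 31 (8.68%). All 160 changed in the same direction in females and in males. The calls came from both sexes together, so this is not independent of the calling. With library totals in place of TMM the calls numbered 154, of which 48 were up and 106 down, since the median change of all microRNAs then moved from 0.00 to -0.07, so small rises rest on the scaling. The plot of all microRNAs shows the named ones on this background.

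**Figure D1:**
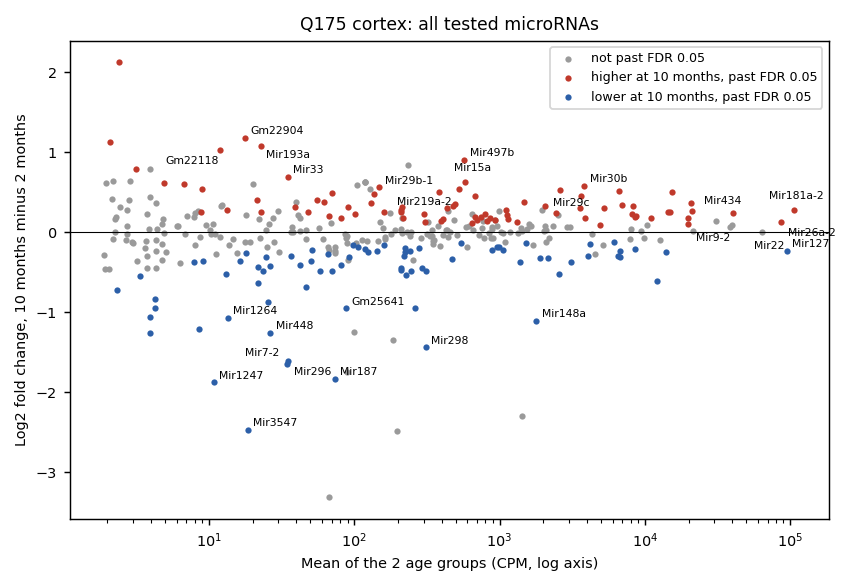
Log2 fold change from 2 to 10 months in Q175 cortex (vertical axis) against the mean level of the age groups in CPM (horizontal log axis), 1 point per tested microRNA. The 82 called rises (red) and 78 called falls (blue) extend over the whole range of levels, and the largest called fall among the labelled ones is that of Mir3547 at -2.47.

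The microRNAs that rose included the whole Mir29 family and several single hairpins. Mir29c, on chromosome 1 from 195037547 to 195037634 (GRCm38), ranged from 2033 to 2275 CPM at 2 months (median 2136) and from 2820.2 to 3258 CPM at 10 months (median 3132), a log2 change of 0.53 (SE 0.04, adjusted p = 1.07e-08). The ages did not overlap. Mir29 is known to repress collagens and other matrix genes. Mir29a rose from a median of 17946 CPM (16615 to 20584) to 23001 CPM (22399 to 25355), a log2 change of 0.36 (SE 0.05, adjusted p = 1.20e-05), again with no overlap. Mir29b-1 and Mir29b-2, which give the same mature strand, rose by 0.56 (SE 0.10) and 0.46 (SE 0.07) on the log2 scale with overlapping ranges. All 4 tested members of the family were called up, against 23% of all microRNAs, and the median of the family was 0.50 beside 0.00 for all. The 4 hairpins lie in 2 pairs, Mir29b-2 with Mir29c on chromosome 1 within exons of the noncoding gene A330023F24Rik, and Mir29a with Mir29b-1 on chromosome 6.

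Mir30b, on chromosome 15 from 68337415 to 68337510 in an exon of the noncoding gene Gm26621, ranged from 2798 to 3369 CPM at 2 months (median 2993) and from 4384 to 4726 CPM at 10 months (median 4605). Its log2 change was 0.58 (SE 0.04, adjusted p = 1.07e-08), and every 10-month mouse was above every 2-month mouse. Its neighbour Mir30d, named after its values were seen, rose by 0.11 (SE 0.03, adjusted p = 0.0159). Mir15a, in an intron of the noncoding gene Dleu2 on chromosome 14 (61632027 to 61632110), is known to repress Bcl2 and cell cycle genes. It went from 424 to 501 CPM at 2 months (median 452.2) to 638 to 771.7 CPM at 10 months (median 702), a log2 change of 0.63 (SE 0.05, adjusted p = 3.88e-08) with no overlap. Mir195a, with the same seed, rose by 0.35 (SE 0.09, adjusted p = 0.00397) with overlapping ranges.

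Mir497b, on the minus strand of chromosome 11 from 70234692 to 70234816, ranged from 332 to 450.4 CPM at 2 months (median 400.2) and from 614 to 945 CPM at 10 months (median 723), a log2 change of 0.91 (SE 0.07, adjusted p = 3.96e-08). No 10-month mouse was as low as any 2-month mouse. Its hairpin lies opposite that of Mir497, and although sequencing was strand-specific per the methods, whether the counting used the strand is not given in the sources used here, so the division of reads between the 2 genes is uncertain. The same holds for Gm25641 opposite Mir9-1, Mir3071 opposite Mir136, Mir338 opposite Mir3065, Mir219a-2 opposite Mir219b, Mir219a-1 opposite Mir219c, Mir451a opposite Mir451b and Mir486 opposite Mir3107.

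Mir33, in an intron of the cholesterol regulator Srebf2 on chromosome 15, is known to repress the cholesterol exporter Abca1. Its level rose from a median of 26.9 CPM (21.1 to 31.9) to 43.2 CPM (36.3 to 52.9), a log2 change of 0.70 (SE 0.10, adjusted p = 2.60e-05), with every 10-month mouse above the 2-month range. Mir193a rose from a median of 14.0 CPM (10.7 to 20.2) to 28.3 CPM (23.7 to 41.0), a log2 change of 1.08 (SE 0.14, adjusted p = 9.01e-06), also without overlap. Mir193b, which shares its 3p seed and was named after its values were seen, fell by 0.30 on the log2 scale (SE 0.07, adjusted p = 0.00282). The largest called rises among microRNAs of at least 10 CPM also included Gm22904, in an intron of Cdhr3 on its opposite strand, with a log2 change of 1.18 (SE 0.15), and Gm22118, in an intron of Zswim6, with 1.03 (SE 0.24), whose ranges overlapped. Both are annotated hairpins without a microRNA name.

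Of 4 listed oligodendrocyte microRNAs 3 rose at 10 months (against 23% of all microRNAs), with a median of 0.32. Mir219a-2, on chromosome 2 from 29845631 to 29845727, ranged from 400.4 to 458.3 CPM at 2 months (median 427) and from 571 to 670.1 CPM at 10 months (median 622), a log2 change of 0.54 (SE 0.05, adjusted p = 7.39e-08). Mir338, in an intron of Aatk, rose from a median of 3115 CPM (2857 to 3242) to 4198 CPM (3931 to 4626), a log2 change of 0.45 (SE 0.04, adjusted p = 1.39e-07). Neither overlapped between the ages. Mir23a, known to repress lamin B1, rose by 0.19 (SE 0.05, adjusted p = 0.00886) with overlapping ranges, and lost the call with library totals alone and without 2-month male 3. Mir219a-1, at 5.60 CPM (median, 2 months) and 4.56 CPM (10 months), had a log2 change of -0.24 (SE 0.13, adjusted p = 0.174).

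**Figure D2:**
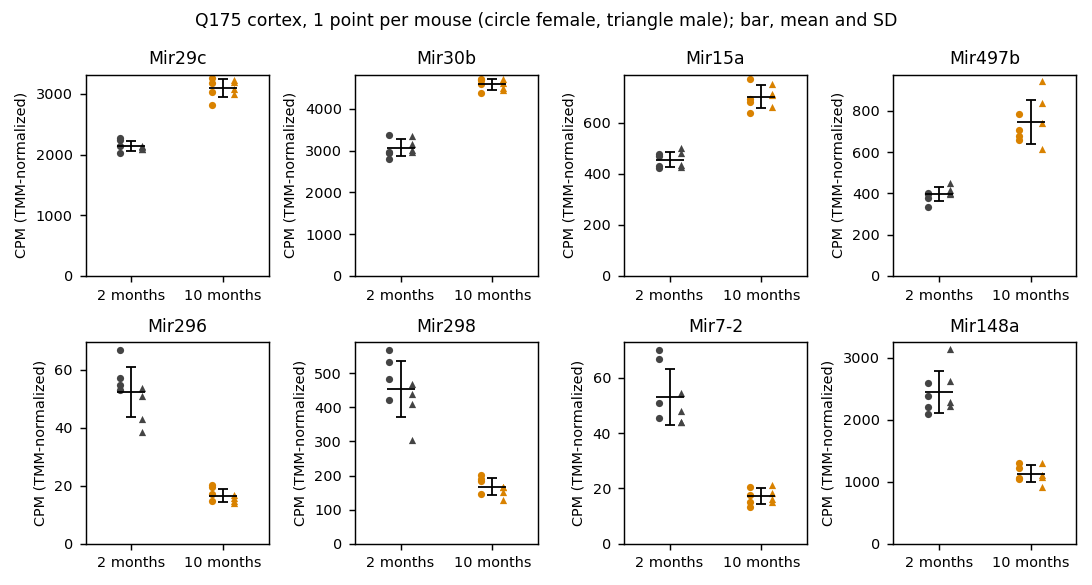
TMM-normalized CPM (vertical axes from 0) at 2 and 10 months in Q175 cortex, 1 point per mouse with circles for females and triangles for males, and the mean with its SD over the 8 mice. In all 8 panels, Mir29c, Mir30b, Mir15a, Mir497b, Mir296, Mir298, Mir7-2 and Mir148a, the ages do not overlap.

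Mir296 and Mir298, which lie within 1 cluster on chromosome 2 (174267047 to 174267585) near the imprinted Gnas locus, had the smallest p-values of those falling. Mir296 ranged from 38.5 to 66.8 CPM at 2 months (median 53.4) and from 14.0 to 20.4 CPM at 10 months (median 16.2), a log2 change of -1.65 (SE 0.09, adjusted p = 6.10e-10). Mir298 ranged from 305 to 569 CPM (median 453.7) and then from 129 to 201 CPM (median 166), a log2 change of -1.44 (SE 0.10, adjusted p = 8.46e-09). In both cases every 10-month mouse was below every 2-month mouse.

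Mir3547, in an intron of Baiap3 on chromosome 17 (25245551 to 25245638), had the largest fold among the named falls. Its 2-month levels ran from 13.7 to 54.0 CPM (median 29.4) and its 10-month levels from 3.71 to 8.95 CPM (median 5.08), a log2 change of -2.47 (SE 0.22, adjusted p = 1.39e-07). Mir1247, in an exon of the noncoding gene Dio3os at the imprinted Dlk1-Dio3 domain, went from a median of 17.6 CPM (11.7 to 23.7) to 4.599 CPM (2.97 to 6.43), a log2 change of -1.87 (SE 0.18, adjusted p = 3.11e-07). Neither overlapped between the ages. Mir187 fell from a median of 118 CPM (55.5 to 139) to 32.6 CPM (27.7 to 36.1), a log2 change of -1.84 (SE 0.15, adjusted p = 3.91e-08), and the lowest 2-month mouse, male 4, was still above all 10-month mice.

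The Mir7 hairpins, known for high levels in neurons and endocrine cells, were lower at 10 months. Mir7-2, on chromosome 7 from 78888277 to 78888373, ranged from 43.9 to 69.99 CPM at 2 months (median 49.5) and from 13.3 to 21.4 CPM at 10 months (median 16.8), a log2 change of -1.62 (SE 0.12, adjusted p = 2.41e-08). Mir7b fell from a median of 56.7 CPM (46.3 to 68.1) to 44.4 CPM (34.6 to 54.4), a log2 change of -0.36 (SE 0.09, adjusted p = 0.00452). The ages were apart for Mir7-2 and overlapped for Mir7b. Mir7-1, which gives the same 5p strand as Mir7-2, fell by 0.16 (SE 0.06, adjusted p = 0.043), and the division of reads between these hairpins is uncertain. Of the 18 listed neuron-enriched microRNAs 2 rose and 4 fell, with a median of 0.06, near or below the 23% and 21.8% of all microRNAs, and no member rose with library totals alone, where 6 fell. Mir137, known for its part in neuronal differentiation, rose by 0.19 (SE 0.04, adjusted p = 0.00128), and Mir124a-1 fell by 0.24 (SE 0.09, adjusted p = 0.036), a call lost without any 1 of 10 libraries.

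Mir148a, on chromosome 6 from 51269812 to 51269910, ranged from 2089.6 to 3141 CPM at 2 months (median 2334) and from 911 to 1309 CPM at 10 months (median 1092), a log2 change of -1.11 (SE 0.09, adjusted p = 3.91e-08). The ages did not overlap. Other hairpins with its 3p seed, named after their values were seen, did not move with it. Mir152 rose by 0.38 (SE 0.07, adjusted p = 0.000257), and Mir148b had a change of -0.07 (SE 0.06, adjusted p = 0.364).

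Mir448, Mir1264 and Mir1298 lie in introns of Htr2c, a serotonin receptor gene with high expression in choroid plexus epithelium, on chromosome X. Mir448 went from 23.3 to 67.5 CPM at 2 months (median 31.8) to 10.1 to 21.6 CPM at 10 months (median 14.6), a log2 change of -1.26 (SE 0.22, adjusted p = 0.000236). Mir1264 had a log2 change of -1.07 (SE 0.14) and Mir1298 one of -0.95 (SE 0.21). All 3 had separate ranges at the 2 ages. Mir204, in an intron of Trpm3 and also abundant in choroid plexus, fell by 0.37 (SE 0.09, adjusted p = 0.00276) with overlapping ranges. Of the 8 tested microRNAs of choroid plexus and ciliated cells 4 fell (21.8% of all microRNAs did) and 0 rose, with a median of -0.27, and their summed level ran from 3857 to 7078 CPM at 2 months and from 3327 to 4092 CPM at 10 months. Without the 3 libraries of 2 months named above 4 fell and 2 rose. The part of choroid plexus tissue in these values was not tested. Gm25641, which RefSeq lists as mir-9b, fell from a median of 113 CPM (88.1 to 179.7) to 59.3 CPM (52.2 to 69.5), a log2 change of -0.95 (SE 0.13, adjusted p = 1.10e-05), with separate ranges.

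The 6 microRNAs with the most counts changed little. Mir181a-2 rose from a median of 93492 CPM (84854 to 119231) to 114045 CPM (109219 to 129118), a log2 change of 0.28 (SE 0.07, adjusted p = 0.0029). Mir127 fell from 100802 CPM (97425 to 115221) to 88086 CPM (76269 to 95608), a change of -0.23 (SE 0.05, adjusted p = 0.000893), and was alone of the 6 in having no overlap. Mir26a-2 rose by 0.13 (SE 0.03) and Mir434 by 0.24 (SE 0.08), both with overlapping ranges and both without a call when library totals were used. Mir434 also lost its call without 10-month female 2. Mir9-2 at 0.09 (SE 0.06, adjusted p = 0.221) and Mir22 at -0.00 (SE 0.05, adjusted p = 0.991) were not called.

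The fixed lists of families and cell types moved unequally, as the plot of the lists shows. In the let-7 family, known for its part in developmental timing, 5 of 10 members rose and Mirlet7i fell, against 23% and 21.8% of all microRNAs, with a median of 0.16. Mirlet7f-2 had a log2 change of 0.27 (SE 0.06, adjusted p = 0.00156), Mirlet7c-2 of 0.20 (SE 0.05), Mirlet7d of 0.18 (SE 0.05) and Mirlet7a-1 of 0.18 (SE 0.06), all with overlapping ranges, and Mirlet7a-1 lost its call without 2-month male 3 or 10-month female 2. With library totals alone 1 of the 10 rose, and without the 3 libraries named above 2 rose. Of the Mir17-92 cluster and its paralogs 4 of 12 rose and 0 fell (median 0.10), against 23% and 21.8% of all. These were Mir93 (0.33, SE 0.05), Mir106b (0.23, SE 0.07), Mir19b-2 (0.41, SE 0.11) and Mir19a (0.80, SE 0.29), the last at a median of 2.11 CPM at 2 months and with a call that was lost without any 1 of 7 libraries.

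Lists of other cell types showed few changes in 1 direction. Among microRNAs of microglia and immune cells Mir21a rose by 0.33 (SE 0.07, adjusted p = 0.000684) and Mir155, known for its induction in inflammation, by 0.61 (SE 0.17, adjusted p = 0.0073), while Mir146 fell by 0.30 (SE 0.08, adjusted p = 0.00413) and Mir146b by 0.34 (SE 0.11, adjusted p = 0.0167). Of the 7 tested in this list 2 rose and 2 fell, against 23% and 21.8% of all microRNAs, with a median of -0.01. In the vessel wall list Mir143, known from smooth muscle, was the only call of 7 (21.8% of all microRNAs fell), with a log2 change of -0.60 (SE 0.10, adjusted p = 9.92e-05). The erythrocyte microRNAs were split. Mir486 fell by 0.53 (SE 0.06, adjusted p = 1.33e-06), Mir451a rose by 0.23 (SE 0.08, adjusted p = 0.0304, lost without any 1 of 8 libraries), and Mir144 had a change of 0.18 (SE 0.08, adjusted p = 0.0869). The olfactory and sensory list had 0 calls among 6 tested members despite a median of -2.02, since its summed level ran from 294 to 22828 CPM among the 2-month mice and from 243 to 1025 CPM among the 10-month mice. Without the 3 libraries of 2 months named above the median was -0.95.

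**Figure D3:**
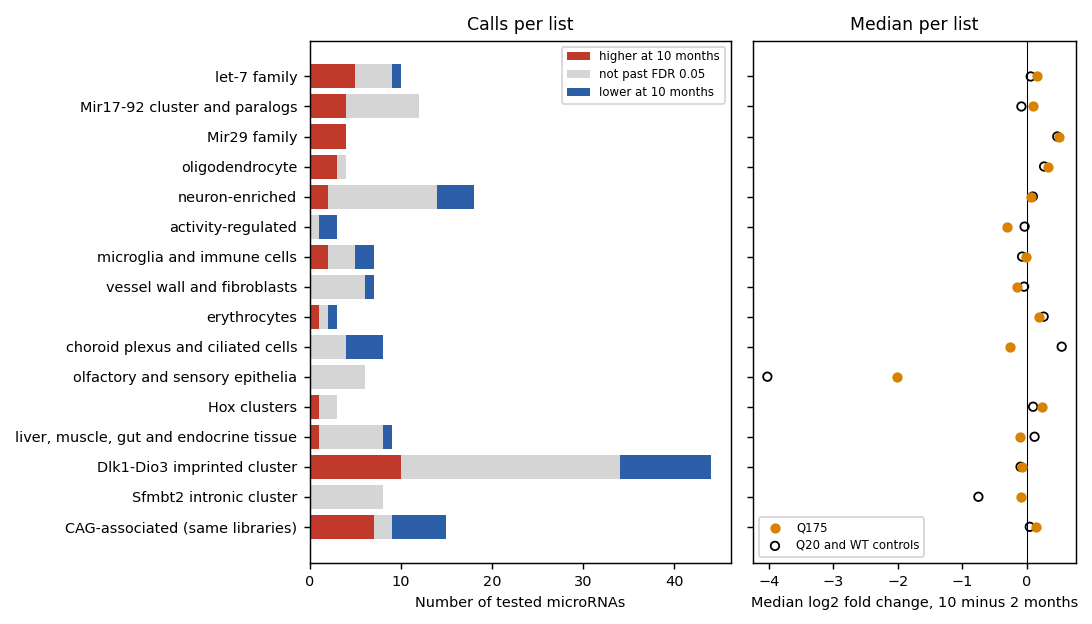
Left, number of tested microRNAs of each list that were higher, lower or not called at 10 months against 2 months in Q175 cortex. Right, the median log2 fold change of each list in Q175 (filled) and in the Q20 and WT controls (open). All 4 Mir29 members rose, and the medians of Q175 and controls are furthest apart for the olfactory and sensory list at -2.02 (6 tested; -0.95 without 3 libraries of 2 months) and -4.02 (8 tested).

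Of 44 tested members of the imprinted Dlk1-Dio3 cluster on chromosome 12, 10 rose and 10 fell, with a median of -0.08. These counts are close to the 23% and 21.8% of all microRNAs, and with library totals alone 6 rose and 20 fell. Mir3071 rose by 0.33 (SE 0.04, adjusted p = 7.11e-06), Mir667 by 0.31 (SE 0.04, adjusted p = 2.86e-05) and Mir154 by 0.25 (SE 0.04, adjusted p = 0.000157), whereas Mir673 fell by 0.45 (SE 0.05, adjusted p = 4.10e-06). Of the microRNAs in an intron of Sfmbt2 on chromosome 2, known as a large rodent cluster, 8 of the 53 in the table passed the filter on low counts and 0 changed in Q175 (median -0.09). The list of other organs gave Mir133a-1, known from muscle, as higher (0.32, SE 0.07, adjusted p = 0.000924) and Mir192 as lower (-0.23, SE 0.06, adjusted p = 0.00878). These were 1 rise and 1 fall out of 9 tested, against 23% and 21.8% of all microRNAs.

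In the Hox list Mir615, in an intron of Hoxc5 on chromosome 15 (103014910 to 103015001), ranged from 0.172 to 1.75 CPM at 2 months (median 0.84) and from 2.18 to 6.42 CPM at 10 months (median 3.74), a log2 change of 2.12 (SE 0.33, adjusted p = 6.01e-05). Every 10-month mouse was above every 2-month mouse, at levels where counting error is large. Mir615 was tested mainly because its 10-month mice passed the filter of at least 10 counts in at least 8 libraries. Its p-value and separate ranges are thus not independent of that filter. Mir10a (0.24, SE 0.12) and Mir10b (-0.35, SE 0.23) were not called.

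A list of 15 microRNAs associated with CAG length in an earlier analysis of these same libraries, which is not independent of the mice tested here, held 7 that rose and 6 that fell in Q175 between the ages (median 0.13), against 23% and 21.8% of all microRNAs. Mir135b, on chromosome 1 from 132198088 to 132198184 in an intron of Lemd1, went from 56.9 to 73.1 CPM at 2 months (median 69.2) to 43.2 to 54.0 CPM at 10 months (median 48.1), a log2 change of -0.49 (SE 0.06, adjusted p = 9.01e-06). Mir212 fell by 0.37 (SE 0.04, adjusted p = 3.43e-06), Mir132 by 0.31 (SE 0.05), Mir221 by 0.32 (SE 0.06) and Mir222 by 0.32 (SE 0.06). All 5 were lower in every 10-month mouse than in any 2-month mouse. Mir3059 fell by 0.25 (SE 0.07) with overlap. Mir667, Mir615 and Mir195a rose as given above, as did Mir181a-1 (0.34, SE 0.06), Mir181a-2 (0.28), Mir210 (0.49, SE 0.11), a microRNA known for its induction by hypoxia, and Mir99a (0.13, SE 0.05), whose call was lost without any 1 of 10 libraries. Mir20a (0.26, SE 0.11, adjusted p = 0.0579) and Mir330 (0.11, SE 0.05, adjusted p = 0.0925) were not called.

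Whether these changes differ from those of mice without a long repeat was tested directly as the age change in Q175 minus the age change in the Q20 and WT controls. In the joint fit of 48 libraries 25 of 390 differences passed FDR 0.05 (6.41%), 11 of them positive (2.82%) and 14 negative (3.59%), and 71 microRNAs had p under 0.05 before adjustment. Most of the change with age in Q175 had a counterpart in controls. In this fit 173 microRNAs changed with age in Q175 and 231 in controls (59.2%, with 28.5% higher and 30.8% lower), and 139 changed in both, 80.3% of the first and 60.2% of the second, 136 of them in the same direction. The control libraries ran on lanes 1, 2, 3 and 7 at 2 months and on lanes 6, 7 and 8 at 10 months. Lane and age are thus largely confounded in them as well. Over all genotypes the library codes LB14, LB15, LB16 and LB17 each occur on lane 7 at both ages. The number 7 therefore need not stand for 1 lane shared by the ages. The difference from controls is between groups that share most lane numbers at each age. Q175 and control mice share no cage code, however, so genotype and cage cannot be told apart in this difference. The Mir29 family had a control median of 0.47, with 4 of 4 up, and none of its members differed between Q175 and controls. For the oligodendrocyte list the control median was 0.26, with 3 of 4 up and 0 differences.

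**Figure D4:**
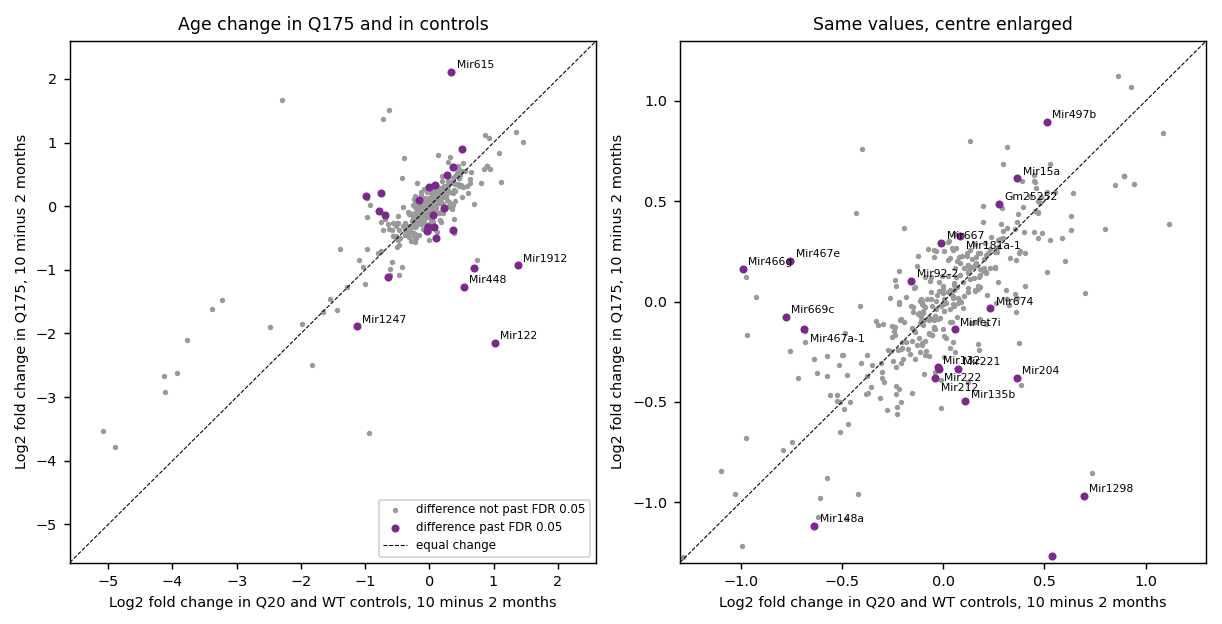
Log2 fold change from 2 to 10 months in Q175 (vertical axis) against that in the Q20 and WT controls (horizontal axis), 1 point per microRNA with the dashed line at equal change, over the whole range and with the centre enlarged. The 25 microRNAs whose difference passed FDR 0.05 (purple) lie off the line, among them Mir615 above it and Mir135b below it.

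MicroRNAs that fell in Q175 while controls stayed level or rose led the negative differences. Mir135b had a log2 change of -0.50 (SE 0.07) in Q175 and of 0.11 (SE 0.05) in controls, a difference of -0.61 (SE 0.08, adjusted p = 1.29e-06). At 10 months it ranged from 44.5 to 54.5 CPM in Q175 (median 47.7) and from 57.6 to 89.8 CPM in controls (median 70.5), with no overlap, whereas at 2 months the Q175 range of 57.7 to 73.9 CPM lay within or near the control range of 61.6 to 75.9 CPM.

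Mir221 and Mir222, neighbours on chromosome X that are known to repress the cell cycle inhibitor Cdkn1b, fell together. Mir221 changed by -0.33 (SE 0.06) in Q175 and by 0.07 (SE 0.04) in controls, a difference of -0.41 (SE 0.08, adjusted p = 0.000416). Mir222 changed by -0.33 (SE 0.05) and -0.02 (SE 0.04), a difference of -0.31 (SE 0.07, adjusted p = 0.0025). Of the 8 Q175 mice at 10 months 7 were below all 16 controls for Mir221 and 8 for Mir222. Mir222 lost its call with the Q20 mice as the only controls (-0.26, adjusted p = 0.0828).

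Mir212 and Mir132 share 1 primary transcript on chromosome 11 within an intron of the noncoding gene 1700016P03Rik. Mir212 changed by -0.38 (SE 0.05) in Q175 and by -0.04 (SE 0.04) in controls, a difference of -0.34 (SE 0.07, adjusted p = 0.000705). Its 10-month range was 1053 to 1316 CPM in Q175 (median 1229.7) and 1170 to 1756 CPM in controls (median 1538), and 14 of 16 controls were above all Q175 mice. For Mir132 the difference was -0.30 (SE 0.08, adjusted p = 0.0112). Of the 3 activity-regulated microRNAs tested 2 thus differed, against 6.41% of all microRNAs, and Mir134 had a difference of 0.01 (SE 0.08, adjusted p = 0.952).

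Mir148a fell in both groups. Its change was -1.12 (SE 0.09) in Q175 and -0.64 (SE 0.06) in controls, a difference of -0.48 (SE 0.11, adjusted p = 0.00325), and 5 of 8 Q175 mice at 10 months were below all controls.

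Among the positive differences, Mir497b rose in both, by 0.90 (SE 0.08) in Q175 and by 0.51 (SE 0.06) in controls, a difference of 0.39 (SE 0.10, adjusted p = 0.0112) that lost its call with the WT mice alone as controls (adjusted p = 0.0762) and with lane as covariate (adjusted p = 0.101). Mir615 rose in Q175 by 2.11 (SE 0.33) and changed by 0.35 (SE 0.30) in controls, a difference of 1.76 (SE 0.45, adjusted p = 0.0112). All 8 Q175 mice at 10 months, with 2.23 to 6.26 CPM, were above all 16 controls, which lay between 0.216 and 1.95 CPM. Here too Mir615 passed the filter on low counts mainly through these Q175 mice. The difference moved to 1.03 (adjusted p = 0.386) with the Q20 mice as the only controls.

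Most tested microRNAs of the Sfmbt2 list fell in controls, while 0 of the 8 tested in the fit of Q175 alone were called. With library totals alone 2 of these 8 fell in Q175. In controls, with 16 mice per age against 8, 9 of 11 tested members fell, against 30.8% of all microRNAs, with a median of -0.75. The members tested here beyond those 8 passed the filter on low counts only with the control libraries included. Their changes in controls are thus not independent of that filter. The age change differed between Q175 and controls for 4 of the list, against 6.41% of all microRNAs. Mir669c, on chromosome 2 from 10509296 to 10509404, changed by -0.08 (SE 0.12) in Q175 and by -0.78 (SE 0.09) in controls, a difference of 0.70 (SE 0.16, adjusted p = 0.00325). Its 10-month range was 9.93 to 14.2 CPM in Q175 and 4.69 to 11.5 CPM in controls, and 15 of 16 controls were below all Q175 mice. Mir467e differed by 0.96 (SE 0.23, adjusted p = 0.00552) and Mir467a-1 by 0.55 (SE 0.14, adjusted p = 0.0112), and both lost the call against the Q20 mice alone, as Mir669c did against the WT mice alone (0.56, adjusted p = 0.0626). In the same controls the summed olfactory and sensory list went from a median of 12943 CPM at 2 months to 612 CPM at 10 months, with 8 of 8 tested members lower, against 486 and 419.8 CPM in Q175. Mir200c and Mir96 of this olfactory and sensory list likewise passed the filter only with the control libraries included. The part of such tissue in the differences from controls was not tested. Members of the Sfmbt2 list resemble each other in sequence, and the assignment of their reads is uncertain.

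**Figure D5:**
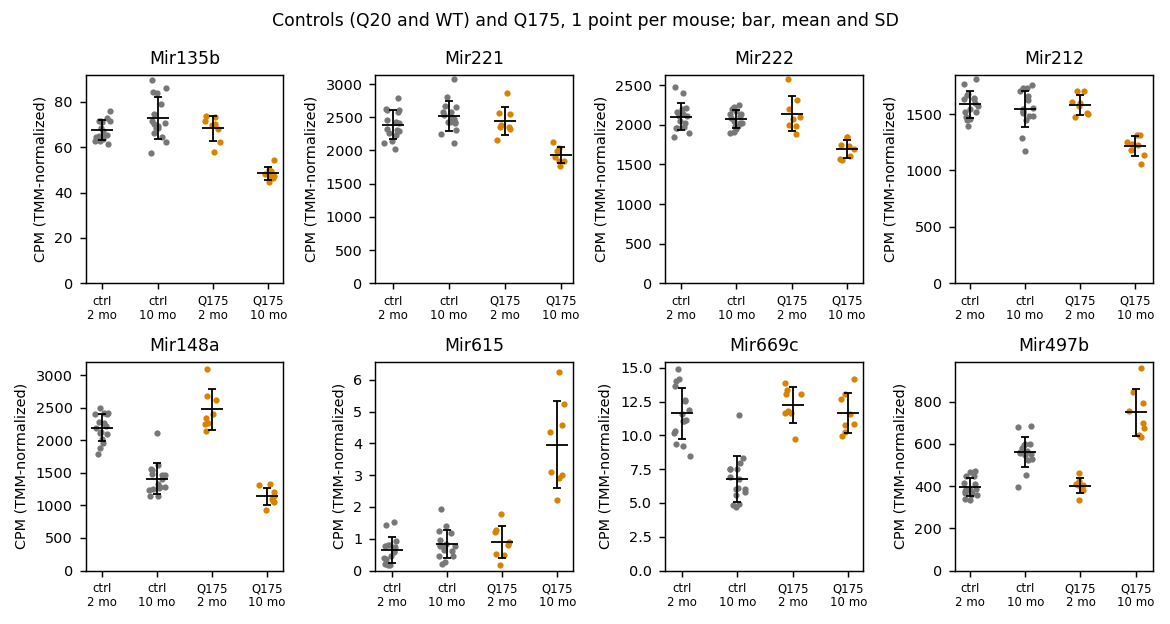
TMM-normalized CPM (vertical axes from 0) in the Q20 and WT controls (grey, 16 per age) and in Q175 (orange, 8 per age), 1 point per mouse with the mean and SD. Mir135b, Mir222 and Mir615 show no overlap between Q175 and controls at 10 months, and Mir669c has lower levels at 10 months in controls.

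Further differences past the threshold were positive for Mir15a, Mir181a-1, Mir667, Mir92-2, Mir466g and Gm25252. They were negative for Mir674, Mirlet7i, Mir1247, Mir122 and 4 choroid plexus microRNAs. Mir448, Mir1298, Mir1912 and Mir204 were 4 of the 9 tested in the choroid plexus list, against 6.41% of all microRNAs that differed. They had negative changes in Q175 and positive ones in controls, where the list had a median of 0.54. Mir1912, and Mir122 named above, passed the filter on low counts only with the control libraries included. The differences of Mir1912 and Mir122 are thus not independent of that filter. The summed level of the list at 10 months ran from 3395 to 4045 CPM in Q175 and from 3375 to 14153 CPM in controls, and 10 or 11 of the 16 controls were above all Q175 mice for each of these 4. Mir448 differed by -1.80 (SE 0.42, adjusted p = 0.0046). The part of choroid plexus tissue in these differences was not tested.

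Q175 was also compared with Q140, the line it arose from. These groups share no cage code either, so genotype and cage cannot be told apart here. The age change differed for 3 of 376 microRNAs (0.798%), 1 positive (0.266%) and 2 negative (0.532%), and p was under 0.05 before adjustment for 41. Mir669c differed by 0.65 (SE 0.15, adjusted p = 0.0301), with a change of -0.08 (SE 0.10) in Q175 and of -0.73 (SE 0.11) in Q140. Its 10-month range was 9.86 to 13.7 CPM in Q175 and 4.98 to 8.18 CPM in Q140, with no overlap. The other calls were Mir448 (-2.16, SE 0.50, adjusted p = 0.0301) and Mir1298 (-1.94, SE 0.48, adjusted p = 0.0482), the choroid plexus microRNAs, whose 10-month levels ran up to 125 and 1348 CPM in Q140. DESeq2 called 12 microRNAs in place of 3. No microRNA was called without any 1 of 7 Q175 libraries (2-month males 1 and 4, 10-month females 2 and 4 and males 1, 2 and 4) or any 1 of 7 Q140 libraries (2-month females 3 and 4 and males 2 and 4, 10-month females 1 and 3 and male 2), and 0 were called with lane or the replicate number in the fit. In Q140 itself 164 microRNAs changed with age (43.6%, with 20.5% higher and 23.1% lower). The difference between Q175 and Q140 was -0.29 (SE 0.09, adjusted p = 0.107) for Mir135b, -0.13 (SE 0.08, adjusted p = 0.603) for Mir212 and -0.24 (SE 0.07, adjusted p = 0.0738) for Mir221.

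Finally, the age change was compared between the sexes of the Q175 mice. In females 104 of 357 microRNAs changed (29.1%, with 15.7% higher and 13.4% lower) and in males 99 (27.7%, with 11.5% higher and 16.2% lower), and 71 were called in both, all in the same direction. The difference between the sexes passed FDR 0.05 for 0 of 357 microRNAs in edgeR (0%) and for 0 in DESeq2, while 22 had p under 0.05 before adjustment. The 3 smallest p-values were those of Mir551b, with a log2 change of 0.20 in females and 0.53 in males (adjusted p of the difference 0.73), Mir376c, with 0.10 and 0.35, and Mir194-2, with 0.12 and -0.49.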

How the data were processed

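Small RNA of the cortex was extracted with a Qiagen miRNeasy kit and sequenced with a strand-specific protocol on a HiSeq 2000 or 2500. The authors aligned reads with STAR to mm10 and deposited a table of estimated counts per transcript. Their methods name HTSeq, which gives whole counts, whereas 48.1% of the values above 0 here were not whole, and the counter of this table and its use of strand are not given in the sources used here. A deposited FPKM table was not used.

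Each estimated count was rounded. MicroRNA transcripts of GENCODE vM21 (GRCm38) with at least 10 counts in at least 8 libraries of a fit were kept, which left 357 for the Q175 ages, and library totals covered all transcripts. The robust quasi-likelihood F test of edgeR 4.0.16 (R 4.3.3) was run after TMM normalization on the 16 Q175 libraries with sex as covariate, on 48 libraries for the difference from controls and on 32 for that from Q140, with Benjamini-Hochberg adjustment at 0.05. Libraries were grouped by genotype and age in the labels. Sex was taken as the commoner sex label among the libraries of a cage code. It differed from the library's own sex label in 2 libraries of the series, neither of them Q175. Alternatives were DESeq2 1.42.0, other scalings, filters, covariates and controls, 1 sex, and leaving out single libraries. Named microRNAs were the 10 called rises and 10 called falls with the largest change at a mean of at least 10 CPM, those with the most counts, up to 5 differences of each sign with the smallest p (3 where none was called), up to 4 called members per list, lists of at most 4 in full and the CAG-associated list in full. The members and lists were chosen with earlier results of these data known. In simulated counts for 357 microRNAs of the Q175 age comparison, 76% of changes of 0.5 and 94% of changes of 1 on the log2 scale were recovered. Counting intervals are not given, since counts are not independent molecules.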

Additional observations from a re-analysis of the deposited data

Results flagged for a closer look

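In 14 of 160 groups of 8 mice that were examined for the 80 named microRNAs, the highest or lowest mouse stood further from the next than Dixon's critical share of the group's range, and chance flags about 1 in 20 groups. The 2-month male 1 was highest for Mir1298 (704 CPM, next 419), Mir204 (4994, next 3789), Mir195a (515, next 444) and Gm25641 (179.7, next 124). 2-month male 4 was lowest for Mir187 (55.5 CPM, next 102) and highest for Mir451a (375, next 303) and Mir10b (431, next 318). 2-month male 3 was highest for Mir127 (115221 CPM, next 103863) and Mir192 (1472, next 1227), and 2-month female 4 for Mirlet7a-1 (12835, next 10522). Among the 10-month mice, female 3 was highest for Mir29b-1 (247 CPM, next 191), female 1 for Mir19a (6.70, next 4.58) and male 3 for Mir1264 (11.5, next 9.10), and female 2 was lowest for Mir29b-2 (612, next 769).

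The age change differed between Q175 and the controls, by the test of the difference, for Mir135b (-0.61), Mir148a (-0.48), Mir221 (-0.41), Mir212 (-0.34) and Mir222 (-0.31), which were lower in Q175, and for Mir615 (1.76), Mir467e (0.96), Mir669c (0.70), Mir467a-1 (0.55) and Mir497b (0.39), which were higher, all as log2 values. Against Q140 the differences were 0.65 for Mir669c, -2.16 for Mir448 and -1.94 for Mir1298.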

How the results depend on the processing

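Against 160 age calls, a fit of females only gave 103 (96 of them among the 160) and one of males only 77 (74 among them), both with fewer mice, and there were 139 to 160 without 1 library. Differences from controls numbered 25, and 15 with either Q20 or WT alone as controls (21 to 31 without 1 library). Differences from Q140 numbered 3, 12 with DESeq2, and 0 with a filter of at least 1 count, with the authors' published set of microRNAs, with the replicate block and with lane (0 to 6 without 1 library). The cause was not tested. The sex difference had 0 calls under every alternative run. Mir22, at -0.0016, turned positive at 0.0030 (at least 1 count), 0.0026 (replicate block), 0.00046 (no covariate), 0.0085 (without libraries alone on their lane), 0.089 (females only) and 0.032 (without 3 libraries, added after seeing the data), and ran from -0.035 to 0.029 without 1 library. The replicate number did not pair the ages, since correlations of same-numbered mice ran from -0.18 to 0.32, and with the block 150 age calls and 20 differences from controls remained in number. Of 3092 values for single microRNAs under alternatives, 2875 kept direction and side of the threshold, 193 lost the call, 11 gained it and 13 changed sign. For the age change, 1 alternative, removal of libraries by the authors' outlier rule, took out 0 Q175 libraries. Its values thus repeat the main fit and could not change. All 20 microRNAs named by size kept the call without any 1 library. Depth limits microRNAs of a few CPM, such as Mir615.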

Other observations

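Hairpins that share a seed moved together in some families and not in others, as a description of families picked after the values were seen. The hairpins that share the Mir344 seed gave 4 falls of 4, against 21.8% of all microRNAs. Their log2 changes were -0.47 for Mir344-2, -0.21 for Mir344b, -0.36 for Mir344c and -0.53 for Mir344d-1 (adjusted p = 9.01e-06, 0.00884, 0.000949 and 5.30e-05 by edgeR). Of the 6 hairpins with the Mir181 seed 4 rose and 1 fell, against 23% and 21.8% of all microRNAs.

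Q175 mice of 6 months were not part of the comparison. Scaled together with the other ages, their mean lay between those of 2 and 10 months for 51 of the 160 called microRNAs (31.9%) and for 71 of all 357 (19.9%). Mir296 was at 12.2 to 21.1 CPM at 6 months (median 17.5) and Mir135b at 41.3 to 57.7 CPM (median 45.7), near the 10-month levels. Mir298, the neighbour of Mir296, was at 400 to 563 CPM (median 469), near its 2-month range of 295 to 558 CPM. Mir219a-2, at 505 to 632 CPM (median 585.9), lay between the ages. Mir30b was at 1582 to 1907 CPM (median 1759), under its 2-month range of 2767 to 3424 CPM, and Mir7-2 was at 54.7 to 111 CPM (median 96.1). Of the 8 libraries of 6 months 5 carry a library code that begins with LB, as the other ages do, and 3 one that begins with V, and the part of library preparation in these values was not tested.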
